A study of Mus musculus with 5 samples.

Results

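The genes described here are 7 markers of mesothelium, the thin epithelium that covers the pancreas and other organs of the body cavity: Msln, Upk3b, Upk1b, Lrrn4, Wt1, Gpm6a and Bnc1. They are 7 of 19938 genes measured. They were chosen by their log2 signals, whose mean over the 7 was highest in the third PDAC (pancreatic ductal adenocarcinoma) array, so high values in this array describe the choice and were not tested. RNA of 5 mouse cultures was hybridised to whole-transcript arrays, 1 array per culture. PDAC replicates 1, 2 and 3 were primary tumour cell cultures from Pdx-1Cre mice written as APCL/+p53L/L. Normal ductal replicates 1 and 2 were duct cell cultures with the p53L/L pair alone, so Pdx-1Cre and p53L/L were common to all 5 as the groups are labelled, and APCL/+ was the labelled difference. L is the usual mark of a floxed allele. Cre came from a Pdx-1 transgene, which acts in the epithelial lineage of the pancreas. The titles depart from each other in 2 places: that of normal ductal replicate 2 leaves out Cre and the word ductal, and that of PDAC replicate 3 adds the words mutant cell. Animal age is not stated in the sources used here, and nothing says whether the cultures came from separate animals, so p-values cover only the spread between these 5 cultures.

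Mesothelial cells arise from the lining of the embryonic body cavity and are unusual in joining epithelial features, such as keratins and surface glycoproteins, with features of mesoderm. Wt1, a zinc finger transcription factor, marks them from the embryo onwards. Mesothelin, the product of Msln, is a surface protein held by a lipid anchor. It is present on normal mesothelium, and in humans many pancreatic cancers carry it too, so a high Msln signal in a pancreatic culture does not by itself name a mesothelial cell. The other markers are shared as well: Upk1b and Upk3b with the lining of the bladder, Gpm6a with neurons, Bnc1 with basal keratinocytes and Wt1 with kidney podocytes.

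The libraries did not all match within their groups. PDAC replicate 3 alone combined a low Xist signal (3.71, against 7.67 to 10.77 in the other 4 arrays) with raised signals of the Y-linked genes Eif2s3y, Uty and Kdm5d, Eif2s3y standing at 5.33 there and at 2.10 to 2.15 elsewhere. Normal ductal replicate 2 held more acinar and islet signal (list mean 8.46, against 6.01 in replicate 1) and more endothelial signal (6.83 against 5.74). Apc ranged over 8.58 to 9.06 in PDAC cultures and over 9.02 to 9.23 in normal ductal cultures. A whole-gene signal does not read a deleted stretch, so these values check no genotype. In 47.8% of genes at least 2 arrays held the same value to 6 decimals, as Upk3b and Bnc1 did, and with no detection call used here a low signal cannot be told from background.

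All 7 members were higher in PDAC replicate 3 than in PDAC replicates 1 and 2, beside 26.6% of all genes, a count that the choice of members bears on and that is read no further. Set against the normal ductal cultures, the members parted ways. Their mean log2 signal was 5.35, 5.77 and 8.80 in PDAC replicates 1, 2 and 3, against 6.41 and 6.95 in normal ductal replicates 1 and 2. PDAC replicate 3 thus stood 1.84 above the next array, which was normal ductal replicate 2, and the other PDAC cultures were the lowest. As a group the PDAC cultures averaged 6.64 ± 1.88 (SD, n = 3) and the normal ductal cultures 6.68 ± 0.38 (SD, n = 2), a difference of -0.04. The PDAC values lay on both sides of the normal ductal values. Without PDAC replicate 3 the difference was -1.12, both remaining PDAC cultures lying below both normal ductal cultures. Over the members the median log2 difference between PDAC and normal ductal was -0.04, and over all genes it was 0.01.

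**Figure D1:**
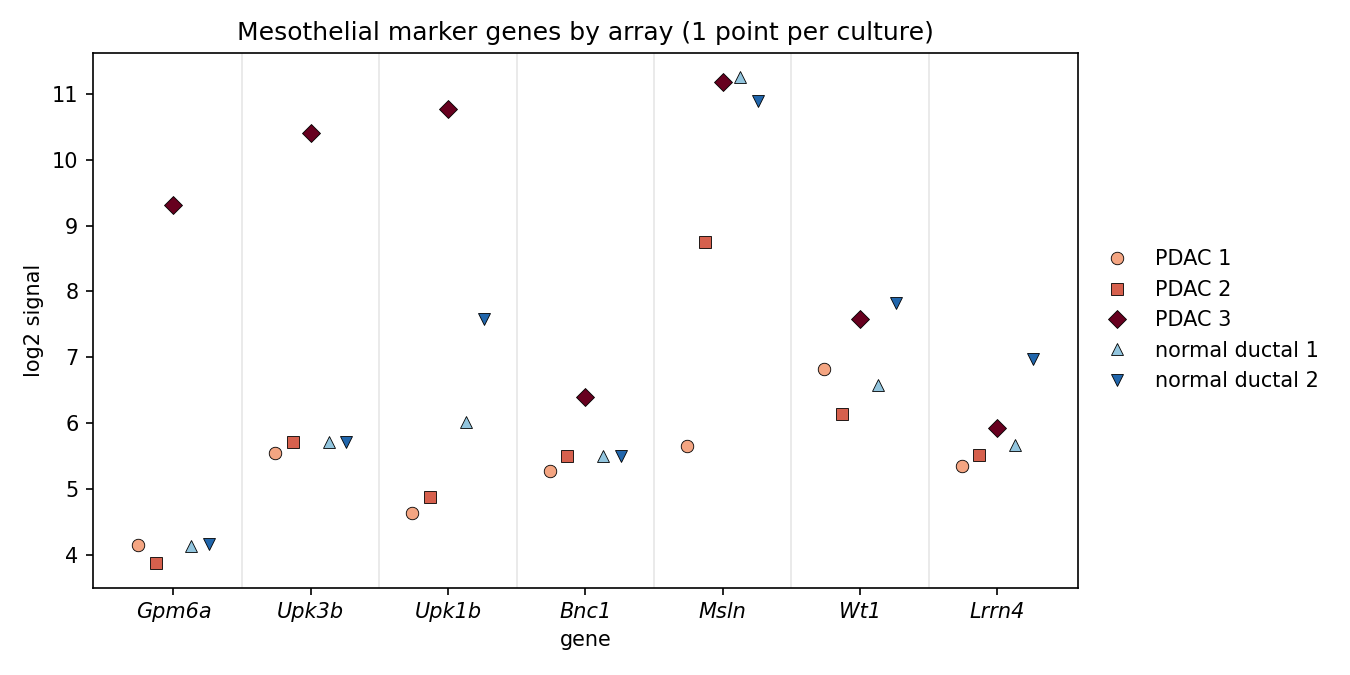
Log2 signal (vertical axis) of the 7 mesothelial marker genes (horizontal axis), 1 point per array. PDAC replicate 3 stands far above all other arrays for Gpm6a, Upk3b and Upk1b and slightly above for Bnc1, while Msln is as high in both normal ductal arrays and Wt1 and Lrrn4 are highest in normal ductal replicate 2.

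Of the 7, only 4 had their own highest signal in PDAC replicate 3, where 16.1% of all genes did, a share that the choice of members leaves without meaning as a test. Msln was highest in normal ductal replicate 1, and Wt1 and Lrrn4 in normal ductal replicate 2. The margin of the mean in PDAC replicate 3 came mostly from 3 genes, Gpm6a, Upk3b and Upk1b. Without them, a trimming made after their values were seen, the mean of the other 4 members was 7.77 in PDAC replicate 3 and 5.77 and 6.48 in PDAC replicates 1 and 2, against 7.25 and 7.80 in normal ductal replicates 1 and 2. With any 1 member left out, the margin of PDAC replicate 3 over the next array lay between 1.29 (without Gpm6a) and 2.33 (without Lrrn4). These margins reuse the values by which the members were chosen, so they are no test of the margin. The name mesothelial thus rests on the known use of these genes as markers. Over all 5 arrays 3 of them were highest in a normal ductal culture, and no cell type is assigned to PDAC replicate 3 here.

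Gpm6a, a membrane glycoprotein of the proteolipid family best known from growing neurons, showed the largest margin of PDAC replicate 3 among the 19938 genes compared. Its log2 signal was 4.15, 3.87 and 9.32 in PDAC replicates 1, 2 and 3, against 4.14 and 4.17 in normal ductal replicates 1 and 2. PDAC replicate 3 was 35.6-fold above the highest of the other arrays, and the remaining 4 arrays lay close together, between 3.87 and 4.17. Such low signals cannot be told from background, which limits what this fold means. The PDAC mean was 5.78 ± 3.07 (SD, n = 3) and the normal ductal mean 4.15 ± 0.02 (SD, n = 2), the large spread in PDAC being that of 1 culture. The gene lies on mouse chromosome 8 from 54779434 to 55060878 (GRCm38, the assembly also called mm10).

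Upk3b, a single-pass membrane protein of the uroplakin family that is used as a marker of mesothelium, stood at 5.55, 5.72 and 10.41 in PDAC replicates 1, 2 and 3, against 5.72 and 5.72 in normal ductal replicates 1 and 2. The 3 arrays at 5.72 held the identical value. PDAC replicate 3 was 25.9-fold above them, a fold against a signal that cannot be told from background. The PDAC mean was 7.22 ± 2.76 (SD, n = 3) and the normal ductal mean 5.72 (n = 2). Upk3b lies on chromosome 5 from 136038496 to 136044993.

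Upk1b, a tetraspanin that pairs with other uroplakins in the bladder, stood at 4.63, 4.87 and 10.77 in PDAC replicates 1, 2 and 3, against 6.02 and 7.58 in normal ductal replicates 1 and 2. PDAC replicate 3 was 9.10-fold above normal ductal replicate 2. The group means differed by less than either spread, 6.76 ± 3.47 in PDAC (SD, n = 3) and 6.80 ± 1.11 in normal ductal cultures (SD, n = 2). Unlike Gpm6a and Upk3b, Upk1b was also graded among the low arrays, both normal ductal cultures lying above PDAC replicates 1 and 2. Upk1b lies on chromosome 16 from 38773182 to 38800203.

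Bnc1, a zinc finger protein of basal keratinocytes, germ cells and mesothelium, stood at 5.27, 5.50 and 6.39 in PDAC replicates 1, 2 and 3, against 5.50 and 5.50 in normal ductal replicates 1 and 2. Its 3 values of 5.50 were identical. PDAC replicate 3 was 1.85-fold above them, with the same limit. Bnc1 lies on chromosome 7 from 81966657 to 81992299.

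**Figure D2:**
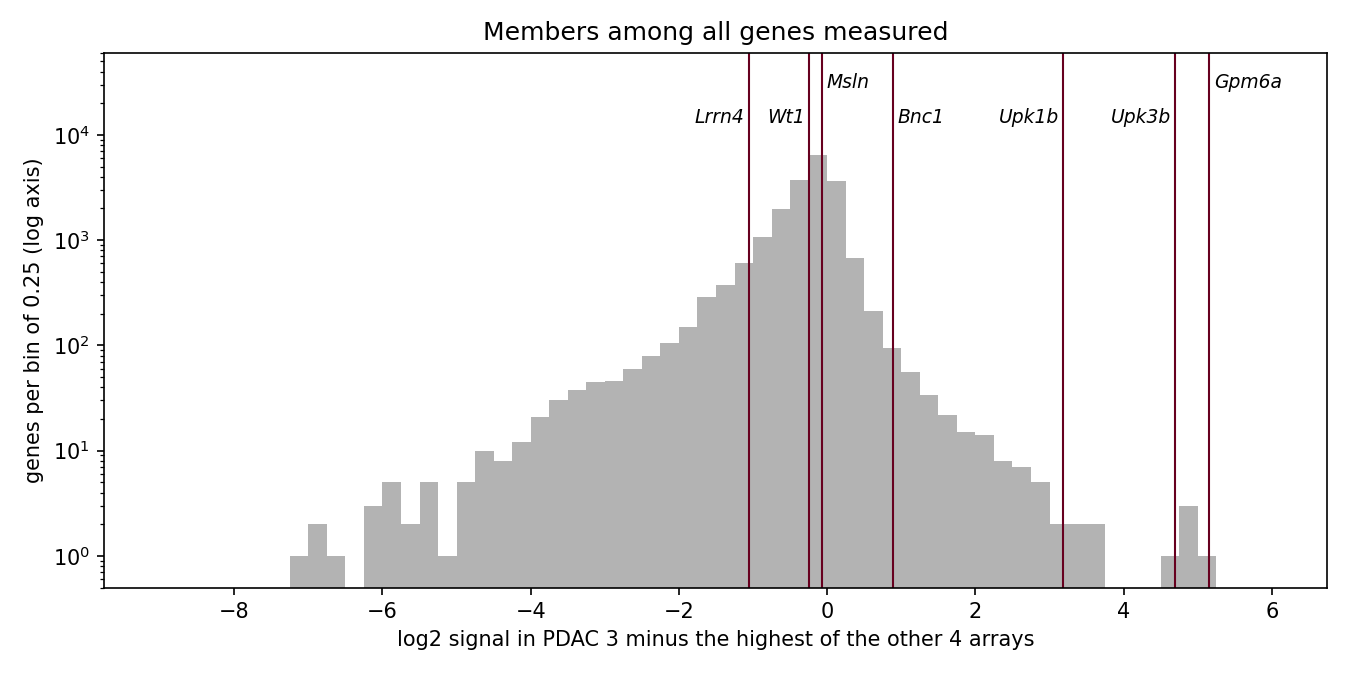
Histogram over all 19938 genes of the log2 signal in PDAC replicate 3 minus the highest of the other 4 arrays (horizontal axis, bins of 0.25; vertical axis, number of genes on a log scale), with a line at each member. Gpm6a, Upk3b and Upk1b lie at the right end (5.15, 4.69 and 3.19), Bnc1 at 0.89, and Msln, Wt1 and Lrrn4 (-0.08, -0.24 and -1.05) within the bulk of the genes.

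Msln followed another course. Its log2 signal was 5.66, 8.75 and 11.18 in PDAC replicates 1, 2 and 3, against 11.25 and 10.90 in normal ductal replicates 1 and 2. PDAC replicate 3 lay between the normal ductal cultures, PDAC replicate 2 below both and PDAC replicate 1 lowest of all. The group means were 8.53 ± 2.77 (SD, n = 3) in PDAC and 11.07 ± 0.25 (SD, n = 2) in normal ductal cultures. The mean difference of -2.55 thus rested on PDAC replicates 1 and 2. Msln lies on chromosome 17 from 25748613 to 25754378.

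Among all genes whose highest signal exceeded the median gene mean, the one nearest to Msln was Krt19, the keratin of pancreatic ducts. Nearness was the root mean square difference over the 5 arrays after each gene was centred on its own mean, and for Krt19 it was 0.22 on the log2 scale. Krt19 stood at 6.47, 9.50 and 11.74 in PDAC replicates 1, 2 and 3, against 11.46 and 11.37 in normal ductal replicates 1 and 2. Second was Sprr1a, a cornified envelope protein, at 0.32. E-cadherin (Cdh1), the adhesion molecule of epithelia, was less close at 0.69, with 6.41, 8.33 and 10.76 in PDAC cultures against 12.32 and 11.96 in normal ductal cultures. The 3 genes ran in the same order over the PDAC cultures.

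Muc16 encodes the large membrane mucin known as CA125, which binds mesothelin in humans. It fell in PDAC, with 3.68, 3.69 and 3.79 in PDAC replicates 1, 2 and 3 against 6.36 and 6.41 in normal ductal replicates 1 and 2. The log2 fold change was -2.67 (SE 0.05, limma adjusted p = 0.0170). The groups did not overlap, and PDAC replicate 3, where Msln was as high as in normal ductal cells, had a Muc16 signal as low as that of the other PDAC cultures. Such low signals cannot be told from background, which limits what this fold change and the contrast with Msln mean. The adjusted p of Muc16 lay between 0.00589 and 0.440 over 10 alternatives and was under 0.05 in 6. Without PDAC replicate 1, 2 or 3 it was 0.262, 0.347 or 0.0674. Mslnl, the paralogue of Msln, differed little (5.29, 5.29 and 5.26 in PDAC against 5.60 and 5.11 in normal ductal cultures, adjusted p = 0.867 by limma).

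**Figure D3:**
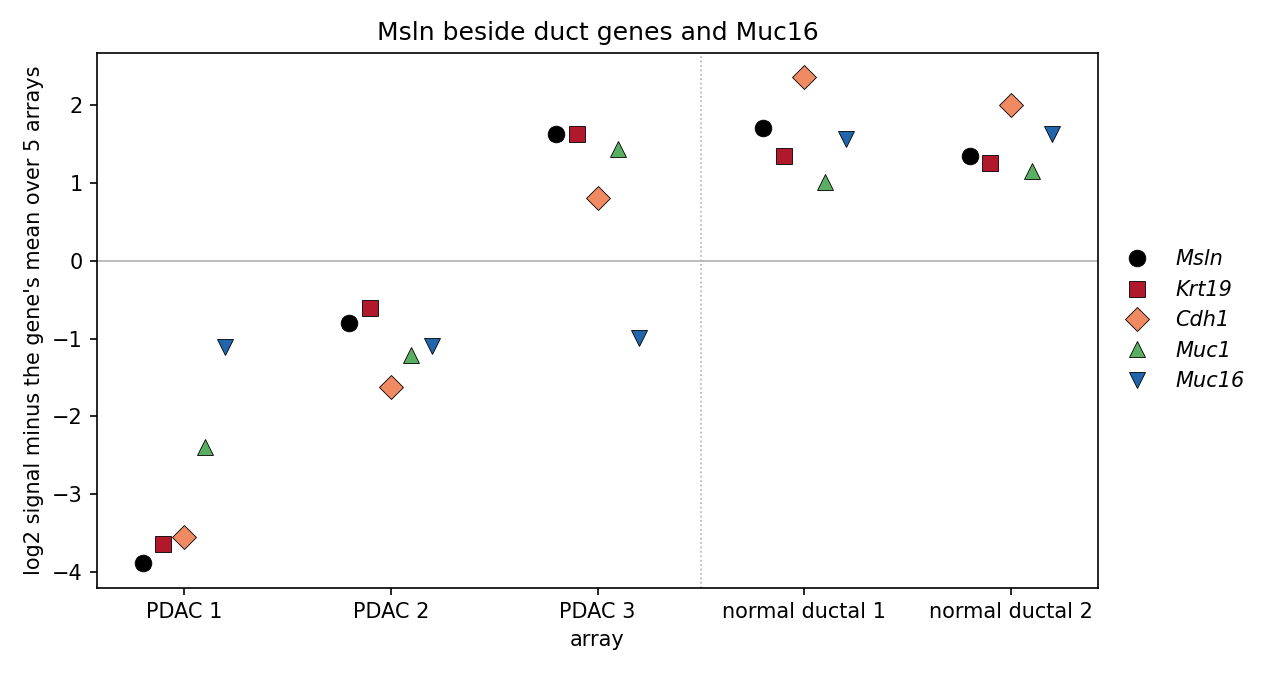
Log2 signal of Msln, Krt19, Cdh1, Muc1 and Muc16, each minus its own mean over the 5 arrays (vertical axis), by array (horizontal axis; points are offset sideways for legibility, and a dotted line parts PDAC from normal ductal). Msln and Krt19 rank the PDAC cultures alike and return to the normal ductal level in PDAC replicate 3, whereas Muc16 is low in all 3 PDAC arrays.

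Wt1 and Lrrn4 formed the remaining pair. Wt1 stood at 6.82, 6.14 and 7.58 in PDAC replicates 1, 2 and 3, against 6.58 and 7.82 in normal ductal replicates 1 and 2. The groups overlapped, and PDAC replicate 3 and normal ductal replicate 2 were the 2 high arrays. The means were 6.84 ± 0.72 in PDAC (SD, n = 3) and 7.20 ± 0.88 in normal ductal cultures (SD, n = 2). Wt1 lies on chromosome 2 from 105126529 to 105173614. Lrrn4, a leucine-rich repeat membrane protein used as a mesothelial marker, stood at 5.35, 5.52 and 5.93 in PDAC cultures and at 5.67 and 6.98 in normal ductal cultures. Here normal ductal replicate 2 alone was high, by 1.05 over PDAC replicate 3. Lrrn4 lies on the same chromosome from 132866686 to 132894010. In 3 of the 7 members (Upk1b, Lrrn4 and Wt1) normal ductal replicate 2 exceeded replicate 1 by more than 1, as 2.93% of all genes did. The same array held the high acinar, islet and endothelial list means given above and a fibroblast list mean of 10.00, against 7.62 in replicate 1. The part of these cells in the Wt1 and Lrrn4 signals was not tested. In such bulk RNA a change in the number of cells of a type and a change in RNA per cell cannot be told apart.

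By the same measure of distance between profiles, Upk3b and Gpm6a were the closest members (0.25), Wt1 and Lrrn4 came next (0.40), and Upk1b lay no more than 1.01 from either of the first pair. Bnc1, though highest in PDAC replicate 3, lay 0.56 from Wt1 and 0.65 from Lrrn4. The measure is not scaled to a gene's range, so genes that vary little lie close whatever their shape. Msln lay at least 1.80 from every other member. Outside the members, the gene closest to Gpm6a was the serpin Serpinb11 (0.09), followed by Pkhd1l1 (0.24), and these were also the genes closest to Upk3b (0.21 for Serpinb11 and 0.20 for Pkhd1l1). The genes closest to Upk1b were Cldn18, a claudin of stomach and lung (0.50), and the matrix metalloproteinase gene Mmp3 (0.80). Tshz2 and Arg1 lay nearest to Lrrn4 (0.12 and 0.13), Dgka and Gfpt2 to Wt1 (0.18 and 0.19), and Clic5 and Atp10d to Bnc1 (both 0.04). The 10 genes nearest to the members' mean were Arhgef26 (0.11), Ptprb (0.18), Il22ra1, Foxa2, Serpinb9, Ugt2b34, Cyp2s1, Tspan15, Sbspon and Crip1 (0.38). Foxa2, a transcription factor of endoderm, stood at 6.99, 6.91 and 9.67 in PDAC cultures and at 7.96 and 8.46 in normal ductal cultures. These are descriptions over 5 arrays, on which many genes share a profile.

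Promoters of 4 of the 7 members were found in the RefSeq table (GRCm38.p6), and the 250 bases before the start are shown for Upk3b and Gpm6a, which shared the sharpest pattern, and for Lrrn4, which did not follow it. Capitals mark the core bound by TEAD factors, GGAATG, or its reverse complement.
Upk3b, chr5:136038246-136038495, plus strand: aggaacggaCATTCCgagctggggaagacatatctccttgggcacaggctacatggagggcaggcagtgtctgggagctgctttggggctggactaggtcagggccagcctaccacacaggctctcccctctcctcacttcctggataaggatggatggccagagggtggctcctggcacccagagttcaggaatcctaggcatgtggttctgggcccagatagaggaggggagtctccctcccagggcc
Gpm6a, chr8:54779184-54779433, plus strand: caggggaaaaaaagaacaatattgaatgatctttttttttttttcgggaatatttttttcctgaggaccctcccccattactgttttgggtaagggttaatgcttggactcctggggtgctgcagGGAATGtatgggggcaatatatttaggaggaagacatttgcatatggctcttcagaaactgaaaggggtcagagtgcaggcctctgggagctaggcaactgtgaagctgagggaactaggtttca
Lrrn4, chr2:132880863-132881112, minus strand: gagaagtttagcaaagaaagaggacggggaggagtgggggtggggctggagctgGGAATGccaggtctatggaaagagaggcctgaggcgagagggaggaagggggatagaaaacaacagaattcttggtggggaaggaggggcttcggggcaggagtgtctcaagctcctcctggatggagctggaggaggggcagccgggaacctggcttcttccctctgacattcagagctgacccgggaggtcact
Both strands were searched for GGAATG and for 4 other motifs. These were GCGTGGG, read by WT1 and EGR proteins, and AGATAA, read by zinc finger factors such as Gata4 and Gata5. GGGCGG, which binds Sp factors, was the next. The last was TATAAA, the usual core promoter box. GGAATG was found once in each of these 3 windows, beginning 241 bases before the start of Upk3b, 125 before that of Gpm6a and 196 before that of Lrrn4, and in 12.6% of 32851 windows of the same length. The genes with the match thus include 1 whose profile differed. Of the members' 5 windows, those of Bnc1 and of the second start of Gpm6a (below) held no GGAATG. The windows shown are therefore the ones with the match. The window of Bnc1 held 5 matches of GGGCGG, which 32.7% of windows hold, and its GC content was 83.6%. The window of a second start of Gpm6a, at chr8:54954478-54954727, held TATAAA only in reverse complement (TTTATA), beginning 211 bases before that start. On either strand TATAAA was found in 12.4% of windows. GCGTGGG (4.3% of windows) and AGATAA (9.99%) were in none of the members' windows. The start listed for Lrrn4 lies inside the span of the gene.

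Among 14 paralogues of the members, 0 exceeded every other array by more than 1 in PDAC replicate 3, beside 0.863% of all genes. Within PDAC alone, 2 of the 14 (Lrrn1 and Gpm6b) were higher there than in both other cultures by more than 1, beside 2.16%. The uroplakin genes Upk1a, Upk2, Upk3a and Upk3bl ranged from 5.73 to 6.40 in PDAC and from 5.87 to 6.61 in normal ductal cultures, and none of them exceeded the other arrays by more than 1 in PDAC replicate 3, as Upk1b and Upk3b did. Gpm6b, the near relative of Gpm6a, stood at 7.50, 6.93 and 8.91 in PDAC against 8.26 and 9.99 in normal ductal cultures. Bnc2, the relative of Bnc1, stood at 8.77, 8.43 and 8.26 in PDAC, against 5.78 in normal ductal replicate 1 and 8.12 in replicate 2. Lrrn1, a neuronal leucine-rich repeat gene, had 4.12, 3.93 and 6.25 in PDAC against 9.68 and 10.56 in normal ductal cultures, which differed by -5.36 on the log2 scale (SE 0.89) and was not called by limma (adjusted p = 0.188). Lrrn2 and Lrrn3 had log2 differences of -0.09 and 0.09. Of the EGR proteins, which share their zinc finger type with WT1, Egr1 had 0.37, Egr2 -0.96, Egr3 0.21 and Egr4 -0.05. Of the 14 paralogues measured, limma called 0 after adjustment, beside 0.0552% of all genes. By unadjusted p (under 0.05) 0 were higher and 2 lower, Upk1a (-0.24) and Lrrn1, beside 13.4% of all genes in both directions.

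A wider list of mesothelial genes outside the members was then examined, 24 genes of which 23 were measured. Muc16 was the 1 gene of the list that passed the limma test over all genes, where 0.00502% of genes were called higher (1 gene) and 0.0502% lower (10 genes). That split was 9 higher and 32 lower under quantile normalization and 10 higher and 23 lower with arrays at a common median. By unadjusted p (under 0.05) 1 was higher and 3 were lower, beside 6.5% and 6.86% of all genes. Without overlap between the groups, 2 were higher and 6 lower, beside 13.6% and 12.8%. The 1 higher gene was Igfbp6, a binding protein of insulin-like growth factor II, with 9.60, 10.22 and 10.55 in PDAC against 6.11 and 6.97 in normal ductal cultures (log2 fold change 3.59, SE 0.43, limma adjusted p = 0.156). The lower ones beside Muc16 were Krt8 (-3.43, SE 0.89, limma adjusted p = 0.282) and the glypican Gpc3 (-1.09, SE 0.31, adjusted p = 0.306). The median log2 difference of the list was 0.10, and that of all genes 0.01. With 1 culture left out the list's median lay between -0.02 (without PDAC replicate 3) and 0.09, so its sign rested on single cultures.

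A few of these genes stood apart in PDAC replicate 3. Pkhd1l1, a large membrane protein related to fibrocystin, was at 4.29, 4.45 and 9.38 in PDAC replicates 1, 2 and 3, against 4.45 and 4.05 in normal ductal replicates 1 and 2. The margin was 30.4-fold, against signals that cannot be told from background. Anxa8, an annexin, was at 7.55, 7.28 and 11.10 in PDAC against 8.44 and 8.15 in normal ductal cultures. Ildr2, an immunoglobulin-like membrane protein, was at 5.97, 6.05 and 8.56 against 6.05 and 5.58. The margin exceeded 1 on the log2 scale for these 3 of 23 genes, beside 0.863% of all genes, and 6 of 23 were highest in PDAC replicate 3, beside 16.1%. The next largest margin in the list was 0.36, for the membrane protein gene Nkain4. With 1 array at this level the margins were not tested.

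The rest of the list did not show such margins over all other arrays. Calb2, the gene of calretinin and a standard marker of mesothelium, was at 4.44, 4.55 and 4.44 in PDAC and at 4.52 and 4.18 in normal ductal cultures. Rspo1, a Wnt agonist, was at 5.64 to 5.67 in PDAC and at 5.67 to 5.68 in normal ductal cultures. Podoplanin (Pdpn) was lower in PDAC replicate 3 than in any other array, with 8.96, 8.99 and 7.42 in PDAC against 8.25 and 11.01 in normal ductal cultures. Aldh1a2, which makes retinoic acid in mesothelium and is linked to WT1, lay between 5.36 and 7.36 in PDAC, against 7.51 and 10.42 in normal ductal cultures, again highest in normal ductal replicate 2. Thrombomodulin (Thbd) was at 9.67, 9.90 and 7.65 in PDAC and at 7.72 and 9.34 in normal ductal cultures. Within PDAC, 10 of the 23 genes were higher in replicate 3 than in both other cultures, beside 26.6% of all genes. By more than 1 it was 7, beside 2.16%, and these included the 4 keratins of the list, which duct cells share. The keratins were lower in PDAC replicates 1 and 2 than in both normal ductal cultures. Without them the list mean was 6.77, 6.57 and 7.07 in PDAC and 6.25 and 6.80 in normal ductal cultures, and 5 of 19 genes were highest in PDAC replicate 3.

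**Figure D4:**
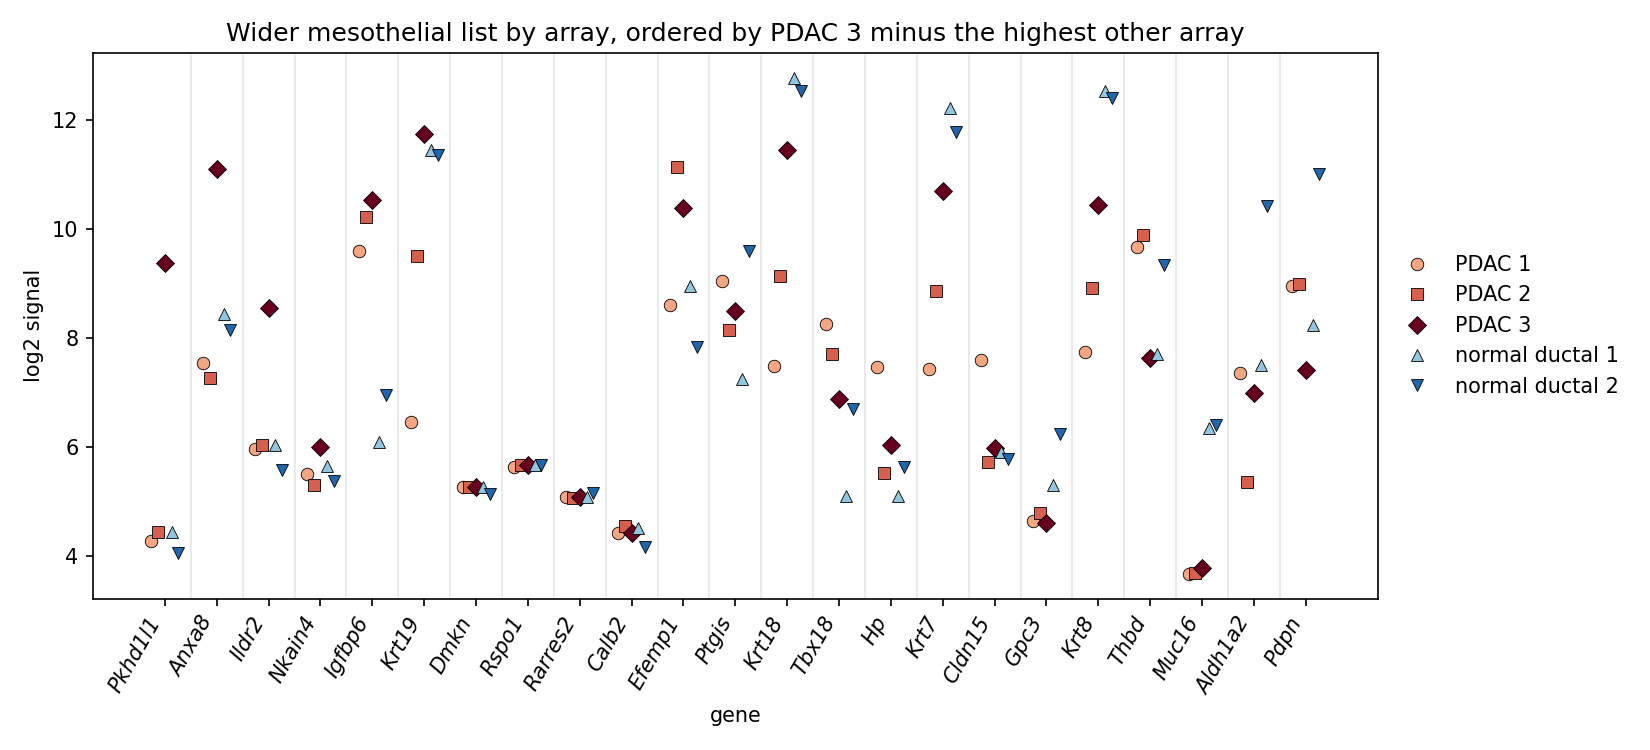
Log2 signal (vertical axis) of 23 mesothelial genes outside the members, 1 point per array, ordered from left to right by the margin of PDAC replicate 3 over the highest other array. Pkhd1l1, Anxa8 and Ildr2 stand out at the left, and for Muc16, Aldh1a2 and Pdpn at the right PDAC replicate 3 lies well below the highest array.

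Transcription factors of the embryonic body cavity lining were examined as well, all 10 of those listed. Gata5 stood at 5.63, 5.94 and 9.67 in PDAC replicates 1, 2 and 3, against 5.79 and 5.69 in normal ductal replicates 1 and 2, so PDAC replicate 3 was 13.3-fold above the next array. Between the groups limma did not call Gata5 (adjusted p = 0.697, and 0.551 to 0.944 over 11 alternatives). Gata4 was also highest there, with 8.81, 8.70 and 9.68 in PDAC and 8.26 and 8.75 in normal ductal cultures. Tcf21 and Hand2 were highest in normal ductal replicate 2, at 6.39 and 7.35, and at most 4.93 and 6.16 elsewhere. By unadjusted p 2 of the 10 were higher and 0 lower, beside 6.5% and 6.86% of all genes, and limma called 0 after adjustment. The median log2 difference of 0.83 was 0.15 without PDAC replicate 3 and 0.42 without normal ductal replicate 1. These were the odd-skipped factor Osr1 (log2 fold change 3.63, SE 0.98, limma adjusted p = 0.294) and the nuclear receptor Nr2f1 (1.43, SE 0.23, adjusted p = 0.185), both higher in every PDAC culture than in either normal ductal culture.

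Of 10 genes linked to WT1, limma called 0 in either direction after adjustment. By unadjusted p the count was also 0, beside 6.5% of all genes higher and 6.86% lower. Their median log2 difference was 0.01. The largest differences among them were those of Cdh1 (-3.64) and Aldh1a2 (-2.40), given above. Wnt4, a signalling protein, stood at 6.43, 6.43 and 8.10 in PDAC and at 6.04 and 6.37 in normal ductal cultures. Podxl, a sialomucin of podocytes and mesothelium, stood at 6.98, 6.80 and 8.51 in PDAC and at 8.42 and 8.04 in normal ductal cultures. With Pax2, these were the 3 of the 10 that were highest in PDAC replicate 3, beside 16.1% of all genes. Snai1 ran the other way within PDAC, with 10.03, 9.65 and 9.01, against 7.31 and 9.01 in normal ductal cultures.

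Markers of the other cell types that use the members as markers were read beside them. Of all genes, 6.5% were higher and 6.86% lower by unadjusted p under 0.05. In PDAC replicate 3, 16.1% of all genes were highest, and 0.863% exceeded every other array by more than 1. The lists are short, so counts near these shares are read no further. By unadjusted p 0 of 8 urothelial genes were higher and 2 lower, Upk1a and the keratin gene Krt20 (-4.03, limma adjusted p = 0.208), with list means of 5.55, 5.92 and 6.16 in PDAC and 6.43 and 6.69 in normal ductal cultures. Of 9 neuronal genes none passed in either direction, and only the tubulin gene Tubb3 exceeded all other arrays by more than 1 in PDAC replicate 3, with 6.16, 6.20 and 7.41 in PDAC and 5.36 in both normal ductal cultures. The other large difference was that of Map2 (-0.99), a protein of dendrites. Of 7 basal keratinocyte genes 1 was lower (Dsg3, -1.61, limma adjusted p = 0.346), and none exceeded the other arrays by more than 1 in PDAC replicate 3. The largest differences among 6 podocyte genes, none of which passed, were -0.80 for Podxl and -0.72 for Cd2ap, and the list mean was 7.08, 6.83 and 7.54 in PDAC and 7.42 and 7.24 in normal ductal cultures. Of 6 genes of Mullerian and gonadal epithelium 1 was lower (Wnt7a, -3.59, limma adjusted p = 0.245), and 0 were highest in PDAC replicate 3.

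Markers of duct, stroma and blood cells were read as well. The mean of 19 epithelial genes was 6.03, 6.59 and 8.03 in PDAC and 10.13 and 9.84 in normal ductal cultures. All 19 were higher in PDAC replicate 3 than in both other PDAC cultures, beside 26.6% of all genes, and 11 of them by more than 1, beside 2.16%. By unadjusted p 12 of the 19 were lower in PDAC, beside 6.86% of all genes, led by Grhl2, a transcription factor of epithelia (-2.53), Cldn7 (-4.18), Rab25 (-3.64) and Cldn4 (-4.76), and limma called 0 after adjustment. The mean of 8 duct genes was 5.99, 6.81 and 7.95 in PDAC and 8.48 and 8.38 in normal ductal cultures. Their median log2 difference was -1.71. Dcdc2a was the 1 of them called lower after adjustment (log2 fold change -3.29, SE 0.09, limma adjusted p = 0.0229), beside 0.0502% of all genes. Onecut1 was lower by unadjusted p alone (-0.60). The adjusted p of Dcdc2a by limma was under 0.05 in 8 of 12 alternatives, and it was 0.262, 0.347 or 0.137 without PDAC replicate 1, 2 or 3 and 0.440 with the replicate block. Fibroblast genes (14) had means of 9.54, 9.40 and 9.20 in PDAC and 7.62 and 10.00 in normal ductal cultures, 1 of them, the matrix protein gene Fbln1, being higher by unadjusted p (2.79, limma adjusted p = 0.173), and none of them was highest in PDAC replicate 3. The same count was 0 for 10 acinar and islet, 9 endothelial and 8 leukocyte genes, beside 16.1% of all genes. Their means in PDAC replicate 3 were 5.71, 5.22 and 5.03. In PDAC replicates 1 and 2 those means were 5.69 and 5.72 for acinar and islet, 5.26 and 5.22 for endothelial and 5.05 and 4.95 for leukocyte genes. Normal ductal cultures had means up to 8.46 for acinar and islet genes, 5.74 and 6.83 for endothelial and 5.29 and 5.80 for leukocyte genes. By unadjusted p the lower genes were the glucagon gene Gcg (-4.29) and the endothelial genes Emcn (-3.72) and Cdh5 (-2.37). Of the leukocyte genes none passed, and the largest differences were those of Lyz2 (-2.66) and Cd68 (-0.57). PDAC replicate 3 thus differed from the other PDAC cultures in epithelial and duct signal together with the members, and the part of that signal in the members' levels was not tested.

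**Figure D5:**
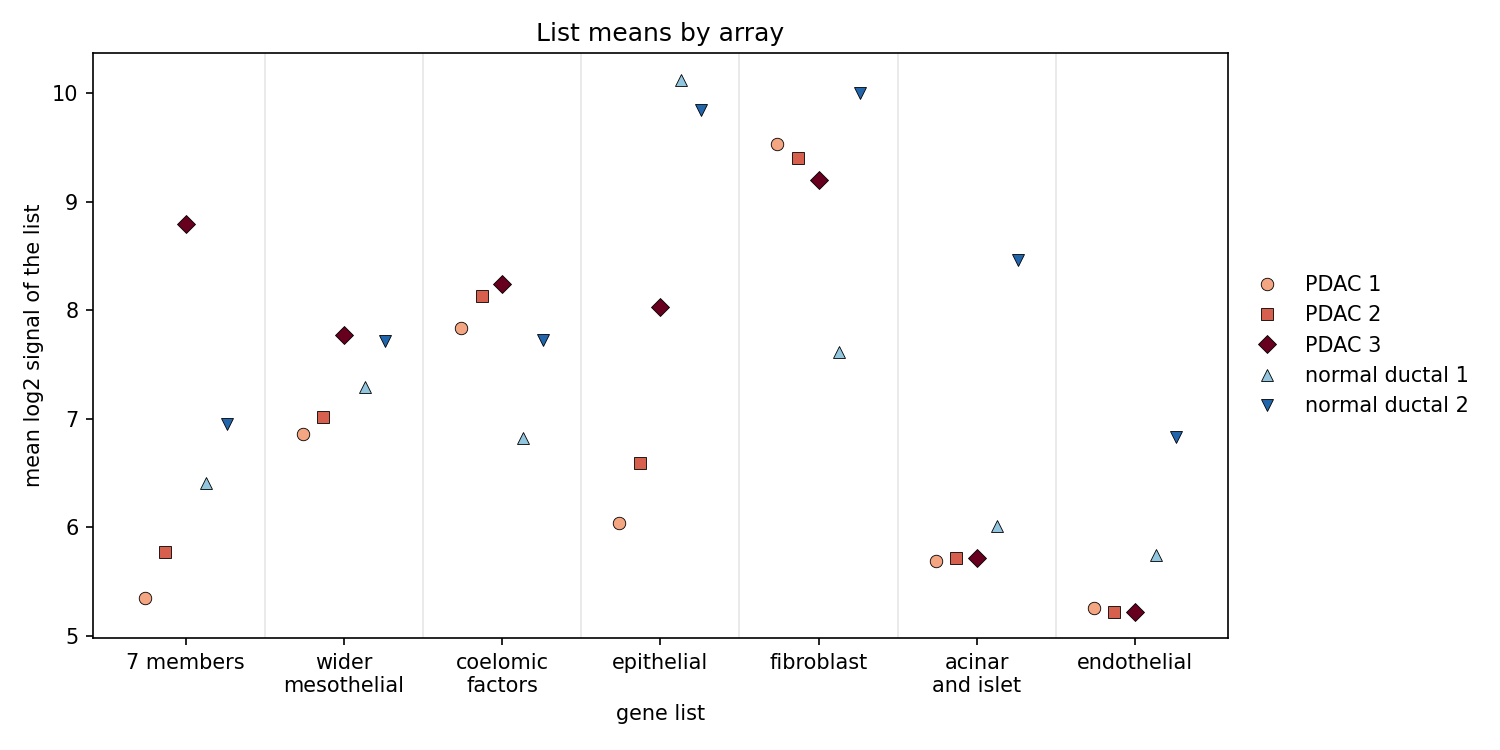
Mean log2 signal (vertical axis) of the 7 members and of 6 gene lists (horizontal axis), 1 point per array. For the members PDAC replicate 3 is the highest array, for the epithelial list it lies between the other PDAC cultures and the normal ductal cultures, and the acinar, islet and endothelial means are highest in normal ductal replicate 2.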

How the data were processed

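The authors deposited log2 signals of 35556 probe sets on 5 arrays. No source used here names the scale, and log2 was inferred from values that run from 1.21 to 13.8 over the genes used. The submitters' processing notes name Transcriptome Analysis Console 1.0.0.234 and the mm10 build. Background correction, normalization and probe summary: not given in the sources used here. Per the labels' protocols, kits for whole transcripts were used for labelling, and cells were grown in RPMI with 10% FBS for under 6 passages, a text that speaks of PDAC cells for all samples. The number of arrays limits the precision.

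Of the probe sets, 21789 had 1 gene symbol, 1621 several and 12146 none here. Those with 1 symbol were used, the one with the highest mean for each of 999 genes with more than 1, which left 19938 genes. Each member had 1 probe set. Gene positions are from the GRCm38.p6 RefSeq table. Some genes of the lists were not analysed here, and counts are over the genes measured.

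PDAC (3) and normal ductal (2) cultures, grouped by title, were compared by limma (version 3.58.1, R version 4.3.3), two-sided, allowing for a trend of the variance with intensity. Residual degrees of freedom were 3 and prior ones 0.905. P-values were adjusted by Benjamini-Hochberg for all genes, and genes under 0.05 were called. No test is given for the members. The members and the 15 lists were chosen with earlier results of these data known. Named were all members and their paralogues, list genes past the threshold, up to 4 per list and direction at an unadjusted p under 0.05, or otherwise the 2 with the largest difference, mesothelial genes with extreme margins in PDAC replicate 3, and the nearest profiles (10 for the mean, 2 per member). Other genes were named as known markers or after their values were seen. Other steps ran in Python 3.11.15 with pandas 2.3.3. The settings varied were the scaling (quantile, or arrays at a common median), the share of dim genes dropped (25% or 50%), the intensity trend, the averaging of a gene's probe sets, a replicate block and the cultures included.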

Additional observations from a re-analysis of the deposited data

How the results depend on the processing

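The margin of PDAC replicate 3 in the members' mean was 1.84 as deposited and between 1.84 and 1.94 under quantile normalization, a common array median or averaged probe sets, and the 10 genes nearest to the mean were the same 10 under both normalizations. The difference of the members' mean between PDAC and normal ductal cultures was near 0 and changed sign. It was -0.04 as deposited, 0.04 with arrays at a common median and -1.12 to 0.60 with 1 culture left out, the lowest without PDAC replicate 3. With the replicate number as a block it was -1.12 as well. Number 3 occurs only in PDAC, so the block removes PDAC replicate 3 from the comparison and is no separate check on it. These shifts were smaller than the PDAC spread (SD 1.88). Those with the block and with a PDAC culture left out reached beyond the normal ductal spread (SD 0.38), and those with a normal ductal culture left out did not. The number of genes called by limma was 11, and it was 41 under quantile normalization, 33 at a common median, 42 without the lowest 50% of genes and 0 with the replicate block (by unadjusted p under 0.05, 1104 higher and 1110 lower). With 1 culture left out it was 0 to 1287. It was 0 without PDAC replicate 1 (by unadjusted p, 955 higher and 994 lower), 2 (934 and 1061) or 3 (1416 and 1335), 1287 without normal ductal replicate 1 and 990 without replicate 2, fits that take the lone normal ductal culture to vary like the PDAC cultures. In the wider mesothelial list the calls after adjustment were 0 higher and 1 lower. The lower count was 0 without the lowest 25% or 50% of genes, where Muc16 was not tested, and 0 with the block. With 1 culture left out the higher count was 0 to 1 and the lower 0 to 2. By unadjusted p the list had 1 higher and 3 lower. It had 2 higher and 5 lower under quantile normalization and at a common median, 2 higher without the lowest 50% of genes, 5 lower with the block, and 1 to 3 higher and 1 to 5 lower with 1 culture left out. Without the keratins, chosen after seeing the data, 1 was higher and 2 were lower. Replicate numbers share no stated source, so they were not used to pair cultures. Deviations from the group means correlated at -0.18 over all genes for number 1 and at -0.04 for number 2. With only 2 normal ductal cultures their deviations mirror each other, so these correlations cannot show whether the numbers mark a pairing.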

Other observations

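The members with the widest margins in PDAC replicate 3 stood among other genes with the same shape. Of all genes, 172 (0.863%) exceeded every other array by more than 1 there. Those given here were picked from the largest margins after their values were seen and have no test, as 1 culture shows them. Cxcl15, a chemokine of lung epithelium, was at 4.34, 3.41 and 9.30 in PDAC replicates 1, 2 and 3, against 3.55 and 3.71 in normal ductal replicates 1 and 2. Stra6, the receptor that takes up retinol, was at 7.52, 7.36 and 11.19 in PDAC and at 7.21 and 7.10 in normal ductal cultures. Lgr5, a receptor for R-spondins that marks several adult stem cells, was at 5.18, 4.80 and 9.17 in PDAC and at 5.67 and 5.48 in normal ductal cultures. The cytokine gene Il33 differed from these in being graded within PDAC, with 6.00, 8.35 and 11.78, against 6.34 and 7.03 in normal ductal cultures. The Y-linked gene Eif2s3y had the same shape, with 2.15, 2.10 and 5.33 in PDAC and 2.11 and 2.15 in normal ductal cultures, while Xist was lowest in PDAC replicate 3, and whether this difference bears on the other genes was not tested. Smpd3, a sphingomyelinase, was at 6.88, 6.61 and 9.84 in PDAC and at 6.85 and 6.79 in normal ductal cultures.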
